A study of Mus musculus with 6 samples.

Results

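The Hox genes are the 39 protein genes of the Hoxa, Hoxb, Hoxc and Hoxd clusters, and they were chosen by symbol alone, as every gene whose name is Hox, a cluster letter and a number. All 39 were in the table of 54735 gene symbols. The data were RNA sequencing of whole pancreas dissected from mouse embryos at stage e16.5, on a mixed background of C57Bl6 and 129SV. The 3 control samples carried Neurog3:cre, a driver that expresses Cre recombinase in endocrine progenitors. The 3 RARdn samples carried Neurog3:cre;RARdnfl/fl, that is, the same driver with a floxed RARdn allele. By the usual reading of the letters, RARdn is a dominant-negative retinoic acid receptor. The series asks how retinoic acid signalling in endocrine progenitors affects islet cell specification. The driver acts in a small epithelial population while the RNA came from the whole organ, and the labels give neither the sex nor the litter of the embryos.

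Hox genes encode homeodomain transcription factors that give cells their position along the body axis. Within a cluster the genes with low paralog numbers are used towards the head and those with high numbers towards the tail, and genes of the same number in different clusters are close relatives called paralogs. Retinoic acid is a textbook inducer of the low-numbered genes, and in the foregut organs Hox transcripts are best known from the mesenchyme, where Hoxb6 is one of the genes used to mark the tissue around the pancreas. Whole-organ RNA cannot tell fewer or more cells of a type from less or more RNA in each cell.

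On the GRCm38 build the Hoxa cluster has 11 members over 105.3 kb of chromosome 6 (minus strand), Hoxb has 10 over 173.9 kb of chromosome 11, Hoxc has 9 over 115.8 kb of chromosome 15 and Hoxd has 9 over 96.8 kb of chromosome 2, the last 3 on the plus strand. Every member carries a homeobox of 180 bases inside 1 exon. It codes for the DNA-binding homeodomain, and its most alike stretch codes for the recognition helix that lies in the major groove. The homeoboxes of 3 genes that the results turn on are shown 5′ to 3′ on the coding strand, from the GENCODE M21 transcripts. Capitals mark the 18 bases for homeodomain positions 48 to 53, inside that helix. Hoxc6 (chr15:103010754-103010933) was the called member, Hoxc8 (chr15:102992571-102992750) its neighbour without counts in controls, and Hoxa5 (chr6:52202632-52202811) the most abundant member per length.

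Hoxc6: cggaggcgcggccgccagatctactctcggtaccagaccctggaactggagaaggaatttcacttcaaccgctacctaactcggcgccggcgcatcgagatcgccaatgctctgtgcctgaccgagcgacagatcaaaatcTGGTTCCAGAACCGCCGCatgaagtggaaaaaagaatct
Hoxc8: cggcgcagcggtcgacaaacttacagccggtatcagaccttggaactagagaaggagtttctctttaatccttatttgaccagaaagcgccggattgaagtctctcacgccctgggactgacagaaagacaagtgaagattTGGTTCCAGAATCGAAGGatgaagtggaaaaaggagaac
Hoxa5: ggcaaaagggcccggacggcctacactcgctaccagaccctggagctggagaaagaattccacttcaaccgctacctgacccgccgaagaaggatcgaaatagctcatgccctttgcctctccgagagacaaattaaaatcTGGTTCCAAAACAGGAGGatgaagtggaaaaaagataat

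The Hoxc6 homeobox was 84.4% identical to that of its paralog Hoxa6, 82.8% to that of Hoxb6 and 67.8% to that of its neighbour Hoxc8. Hoxc8 and its paralog Hoxb8 were 80% identical. The longest run of identical bases that the Hoxc6 homeobox shared with any other member was 28 bases, and that of Hoxc8 was 21.

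Each library held 35256531 (RARdn 3) to 52015498 (RARdn 2) counts in genes, and levels are given as CPM, a gene's counts scaled to an equal library total. The libraries differed in more than genotype. Xist, the transcript of the inactive X chromosome, was at 1150 and 1089 CPM in control 1 and 3 and under 1 CPM in the other 4 libraries. Acinar digestive enzyme genes took 18.3% to 19.9% of counts in controls and 7.54%, 23.2% and 28.2% in RARdn 1, 2 and 3, and reads outside genes were 7.60% to 8.99% of all reads in controls and 2.90% to 5.30% in RARdn. The part of these differences in the Hox values was not tested, apart from the terms and scalings given below. In the description fields RARdn 1 has another leading number than RARdn 2 and 3, whose meaning is not explained. The marker lists of the labelled organ were present in each library: summed acinar markers reached 12650 to 41440 CPM, duct markers 462.1 to 496 CPM in controls and 553.9 to 645.5 CPM in RARdn, and endocrine markers 1349 to 2613 CPM.

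Transcripts came from the low-numbered part of the clusters in both genotypes. The 27 members with paralog numbers 1 to 9 summed to 74.8, 57.7 and 51.8 CPM in controls against 101.3, 93.9 and 58.4 CPM in RARdn. The 12 members numbered 10 to 13 together had 0, 1 and 2 counts in controls and 11, 3 and 2 counts in RARdn. Hoxa11, Hoxa13, Hoxb13, Hoxc11, Hoxc12, Hoxc13, Hoxd12 and Hoxd13, 8 members that serve the limb, urogenital tract and tail, had 0 counts in each library, and 3 counts, the limit that a count of 0 allows, are 0.0577 to 0.0851 CPM at these depths. A further 10 members (Hoxa9, Hoxa10, Hoxb1, Hoxc8, Hoxc9, Hoxc10, Hoxd1, Hoxd3, Hoxd10 and Hoxd11) had counts but were too low for the filter, which left 21 members that were tested. These limits and the intervals below cover counting error only.

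**Figure D1:**
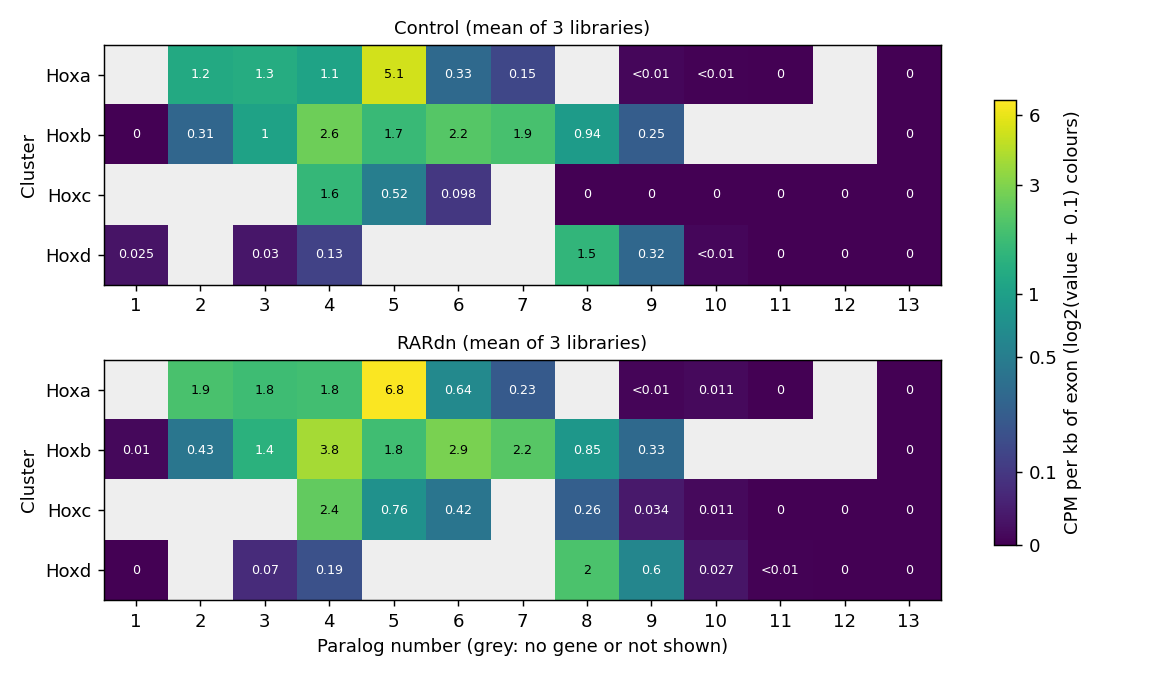
Mean level of 38 of the Hox genes by cluster (rows) and paralog number (columns) in the 3 control and the 3 RARdn libraries, in CPM per kilobase of exon; the colour scale is log2(value + 0.1) and grey marks positions without a gene or not shown. Hoxa5 has the highest value in both panels (5.13 and 6.78), and the columns from 10 to 13 are at or near 0.

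Levels of different genes are compared here as CPM per kilobase of exon. Hoxa5, which patterns lung and foregut mesenchyme, was highest in controls at 5.13 ± 1.10 (SD, n = 3), and its controls did not overlap those of any other member. Hoxb4, a gene known from blood stem cells, followed at 2.64 ± 0.399, then Hoxb6 at 2.20 ± 0.370, Hoxb7 at 1.92 ± 0.552 and Hoxb5 at 1.68 ± 0.623. From Hoxb4 down to Hoxb8 at 0.938 ± 0.145, each gene overlapped the next in the controls, so this order holds only in steps. Hoxc5 came next at 0.515 ± 0.107, with controls that overlapped neither those of Hoxb8 above nor those of Hoxa6 below. It was not a separate step, as Hoxd9, ranked under Hoxa6, reached 0.498 in control 1, inside the Hoxc5 range of 0.441 to 0.638. Hoxc6 was the lowest tested member at 0.0985 ± 0.0287. Hoxb3 lay at 1.05 per kilobase of all its exons. Dividing all its counts by only the exon length that no other gene covers gave 2.23, which moved it from place 11 to place 3. Counts from shared bases were not taken out, so 2.23 is an upper limit for the unshared exon. It overlaps the antisense transcript Hoxb3os, and 16 of the 39 members, 10 of them tested, share exon bases with another gene. Where that gene lies on the other strand, the counts carry a doubt because the strand setting of the counting is unknown. Where it lies on the same strand, as for Hoxd3 and Hoxd4, a strand setting would not separate the genes.

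Between genotypes most Hox genes sat slightly higher in RARdn, without passing the test singly. With edgeR's quasi-likelihood test and Benjamini-Hochberg adjustment over 19070 genes, 1 of 21 tested members was called higher (Hoxc6) and 0 were called lower (0 also by DESeq2 and limma-voom), against 1.37% of all genes called higher and 2.65% called lower (4.02% in either direction). At an unadjusted p under 0.05 there were 4 members, Hoxa4, Hoxb4, Hoxc4 and Hoxc6, all higher, where 22.2% of all genes pass. The log2 fold change, RARdn over control, was above 0 for 20 of 21 members against 50% of all genes, but for 6 of 21 when libraries were scaled to the pancreatic mesenchyme markers. The median over the 21 was 0.45 and that of all genes 0.00051. Scaling to the mesenchyme markers moved the median of all genes to -0.60 and that of the Hox genes to -0.16, which is 0.44 above all genes. For 15 of the 21 the value lay between 0.25 and 0.75, and adjusted p-values other than that of Hoxc6 ran from 0.1556 to 0.8997. Labels do not say that the 3 samples of a group came from separate litters or preparations, so a p-value here weighs only how far these libraries scatter, and part of that scatter may be technical.

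**Figure D2:**
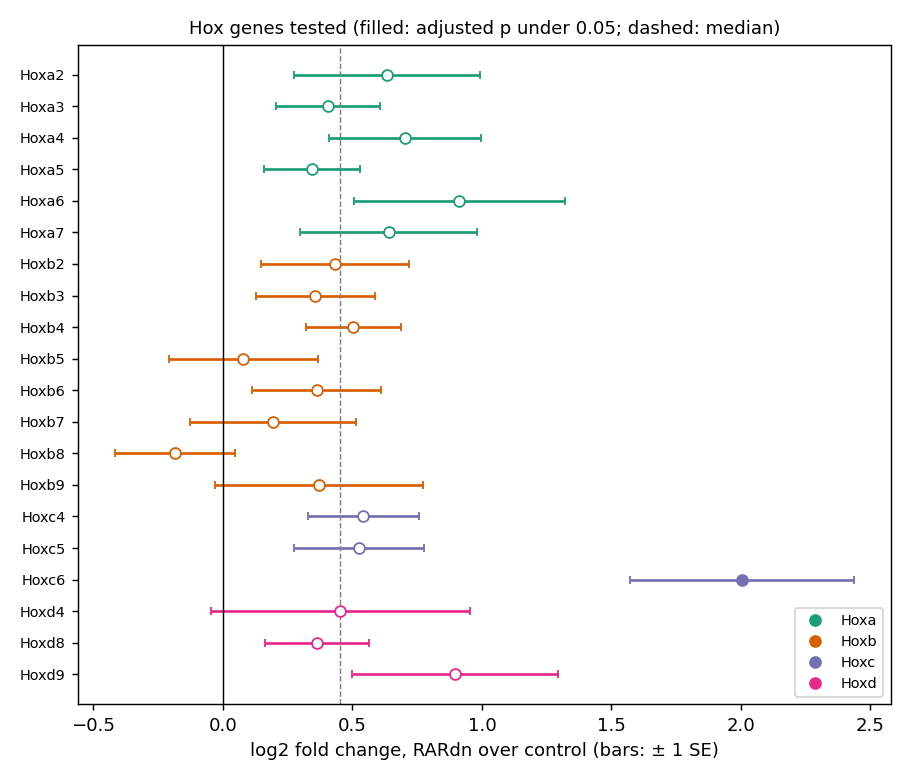
Log2 fold change of 20 of the 21 tested Hox genes, RARdn over control, with bars of ± 1 SE from the edgeR test and colours for the 4 clusters. Hoxc6 (2.003) stands alone, 18 of the other values lie between 0 and 1, Hoxb8 lies below 0, and with scaling to mesenchyme markers 6 of the 21 values are above 0.

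The libraries did not move as 2 tight groups. For a view by library, levels were scaled by TMM, as in the edgeR test. Over the tested members, the median log2 ratio of these TMM-scaled levels to the control mean was 0.23, -0.12 and -0.21 in control 1, 2 and 3, against 0.46, 0.66 and 0.079 in RARdn 1, 2 and 3. RARdn 3 therefore sat below control 1. On the same TMM scale, the Hox genes above their control mean numbered 20, 5 and 3 of 21 in the controls and 18, 20 and 14 in RARdn. All 3 RARdn libraries lay above all controls for 5 members on the CPM scale (among them Hoxa7, Hoxc5, Hoxc6 and Hoxd8), where 8.13% of all genes do so. After TMM scaling it was 8 members (among them Hoxa6, Hoxa7, Hoxb2, Hoxb4, Hoxc5, Hoxc6 and Hoxd9), against 13.9% of all genes, and no member lay wholly below the controls on either scale, where 10.2% (CPM) and 13.7% (TMM) of all genes do.

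Hoxc6, a gene of thoracic identity in the trunk, was higher in RARdn. Its level was 0.285, 0.268 and 0.158 CPM in control 1, 2 and 3 and 1.67, 0.692 and 0.681 CPM in RARdn 1, 2 and 3, from 11, 12 and 7 counts and 80, 36 and 24 counts. The groups did not overlap, with RARdn 1 highest. The log2 fold change was 2.003 (SE 0.43, edgeR adjusted p = 0.0419), a fold of 4.01. The call is close to its threshold: it was lost when any library but RARdn 3 was left out, with a log2 fold change of 1.67 and an edgeR adjusted p of 0.0796 without RARdn 1. With a term for sex the edgeR adjusted p was 0.4032 at a log2 fold change of 1.84. Control 2 was the only control without Xist, and no RARdn library had Xist, so sex and genotype cannot be fully told apart here.

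Hoxc6 was also described per count of its neighbours in the cluster. There were 0.145, 0.197 and 0.109 Hoxc6 counts per Hoxc5 count in control 1, 2 and 3, against 0.606, 0.324 and 0.316 in RARdn 1, 2 and 3. Per Hoxc4 count the values were 0.0561, 0.0706 and 0.0467 against 0.202, 0.113 and 0.161. These ratios are taken within a library and do not depend on its scaling, and neither overlapped between groups. They reuse the counts for which Hoxc6 was singled out, so they add no separate evidence.

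Hoxc8, the next gene of the cluster and a regulator of brachial and thoracic identity, had 0 counts in each control and 95, 11 and 1 counts in RARdn 1, 2 and 3. RARdn 1 was at 1.98 CPM (exact Poisson interval 1.60 to 2.42, 95%), RARdn 2 at 0.211 CPM (0.106 to 0.378) and RARdn 3 at 0.0284 CPM (0.000718 to 0.158). The RARdn mean was at least 31.5-fold higher than the floor of 3 counts over the control group (0.0235 CPM), and at least 5.10-fold higher without RARdn 1. The low-count filter kept Hoxc8 out of the test, so it has no p-value there. With no filter edgeR called it at an adjusted p of 0.003418, beside Hoxc6, where 2346 of 33909 genes were called (1123 higher). That call rests on RARdn counts alone, most of them from RARdn 1. Hoxc9 had 12 counts and Hoxc10 3 counts, all in RARdn 1, and Hoxc11 to Hoxc13 had none. Transcripts of Hoxc8, Hoxc9 and Hoxc10 were thus fewer at each higher paralog number in RARdn 1 and were absent from controls within the limit that 0 counts allow.

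**Figure D3:**
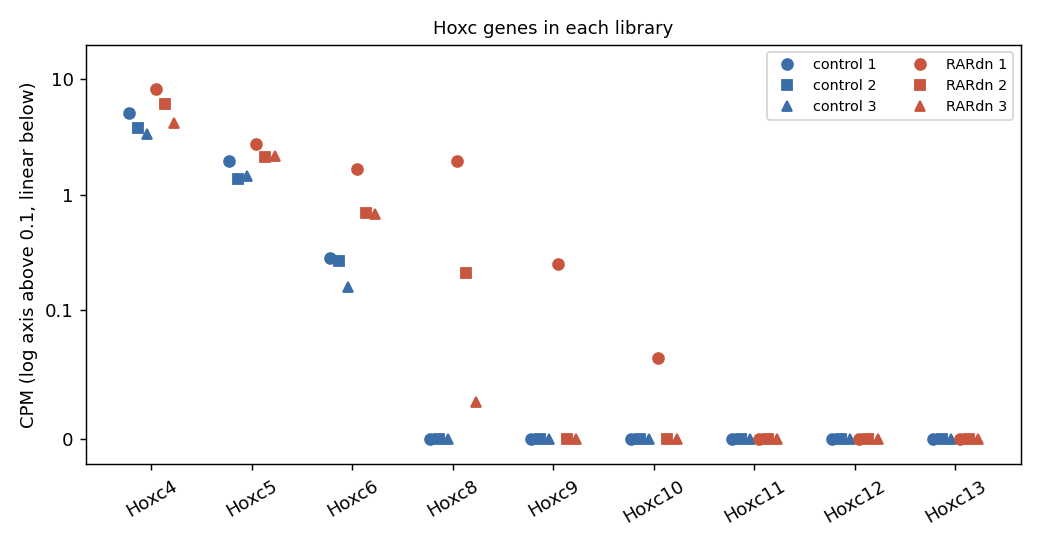
CPM of the 9 Hoxc genes in each of the 6 libraries, on an axis that is logarithmic above 0.1 and linear below. Hoxc4 overlaps between genotypes, Hoxc5 and Hoxc6 lie higher in the 3 RARdn libraries, and Hoxc8 is at 0 in the controls and at 1.98, 0.211 and 0.0284 CPM in RARdn 1, 2 and 3.

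Of 16 marker lists for cell types, 7 had summed CPM in the same order, RARdn 1 above RARdn 2 above RARdn 3: pancreatic mesenchyme, splenic mesenchyme, Schwann and neural crest, endothelium, leukocyte, liver and endocrine. Among these 7 the widest steps from RARdn 1 to RARdn 2 were in the liver (3.17-fold) and the Schwann and neural crest lists (1.76-fold). List sums were not worked out after TMM scaling, which lowers RARdn 1 relative to RARdn 2 and 3, so the order holds for CPM only. For the summed Hox genes TMM turned 101.5, 93.9 and 58.5 CPM in RARdn 1, 2 and 3 into 83.2, 96.4 and 67.8. On the CPM scale the order was not particular to cell type markers, as the TALE cofactor, Polycomb and trithorax lists described below had it too. The TALE cofactors summed to 575.4, 417.9 and 351 CPM in RARdn 1, 2 and 3. Acinar markers ran the other way, at 12650, 35500 and 41440 CPM. The 6 Schwann and neural crest markers, none at 0, summed to 28.9 to 37.1 CPM in controls and to 85.7, 48.6 and 35.8 CPM in RARdn 1, 2 and 3. Of these 0 of 6 were called by edgeR and by limma-voom, 5 had an unadjusted edgeR p under 0.05 and DESeq2 called 5. The 5 liver markers, none at 0, summed to 380.7 to 405.1 CPM in controls and to 1751, 553.3 and 386.4 CPM in RARdn 1, 2 and 3, with Alb called higher by edgeR (log2 7.07, SE 1.53, adjusted p = 0.0428), although RARdn 3 at 2.75 CPM lay inside the control range of 1.15 to 2.93 CPM. DESeq2 called 4 of the 5 and limma-voom 0. The part of these cell types in the Hoxc6 and Hoxc8 values was not tested. The summed intestine markers were lower in each RARdn library (28.0 to 46.8 CPM) than in each control (50.4 to 60.3 CPM), with 0 of 2 tested called by any tool and 1 at an unadjusted edgeR p under 0.05. That sum was nearly all Vil1, at 48.3 to 58.6 CPM in controls and 26.5 to 45.1 CPM in RARdn. Cdx1 and Cdx2 had at most 3 counts in any library. Fetal kidney markers overlapped between groups (17.4 to 27.9 CPM in controls, 11.9 to 28.5 in RARdn) and stomach markers were at most 0.369 CPM in any library. Wt1, which is also in the mesothelium list, made up most of the kidney sum, and Pax2 and Pax8 had at most 5 counts in any library.

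The remaining Hoxc genes moved less. Hoxc4, the most abundant of the cluster in total counts, was at 5.08, 3.80 and 3.38 CPM in control 1, 2 and 3, against 8.26, 6.13 and 4.23 CPM in RARdn 1, 2 and 3 (log2 fold change 0.54, SE 0.22, adjusted p = 0.1836). Hoxc5 was at 1.97, 1.36 and 1.44 CPM against 2.75, 2.13 and 2.16 CPM (log2 0.53, SE 0.25, adjusted p = 0.2592). For Hoxc4, RARdn 3 lay inside the control range, while Hoxc5 did not overlap between groups. Summed over the cluster, Hoxc was at 5.92 ± 1.25 CPM in controls and 10.4 ± 4.09 CPM in RARdn (SD, n = 3), a fold of 1.76. Its share of all Hox counts was 9.42% to 9.81% in controls and 14.8%, 9.76% and 12.1% in RARdn 1, 2 and 3, so RARdn 2 was not above the control range.

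In the Hoxa cluster the abundant members differed by less than the spread between libraries. Hoxa5 was at 11.9, 8.96 and 7.98 CPM in controls and at 16.4, 12.9 and 8.85 CPM in RARdn (log2 0.35, SE 0.18, adjusted p = 0.3125), and Hoxa3, a gene of the pharyngeal arches and thymus, at 9.28, 7.22 and 6.79 CPM against 13.2, 12.03 and 6.84 CPM (log2 0.41, SE 0.20, adjusted p = 0.2745). In both genes RARdn 1 and 2 were above all controls and RARdn 3 was among them. Hoxa6, among the 3 largest fold changes, was at 0.259, 0.223 and 0.383 CPM against 0.668, 0.654 and 0.369 CPM (log2 0.91, SE 0.41, adjusted p = 0.2309). Hoxa7, the highest-numbered Hoxa gene tested, did not overlap between groups: 0.441, 0.380 and 0.451 CPM in controls against 0.709, 0.634 and 0.681 CPM (log2 0.64, SE 0.34, adjusted p = 0.3109). Hoxa2 and Hoxa4, hindbrain and neck genes, had log2 fold changes of 0.63 and 0.70 with overlapping groups and adjusted p-values of 0.3365 and 0.2023.

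The Hoxb cluster gave the most Hox counts in 5 of the 6 libraries, RARdn 1 excepted, where Hoxa gave 39.3%; its share was 43.8% to 45.5% in controls and 37.8%, 44.2% and 40.8% in RARdn 1, 2 and 3. Hoxb4 was at 7.96, 6.17 and 6.20 CPM in controls and at 10.8, 11.4 and 7.38 CPM in RARdn (log2 0.50, SE 0.18, adjusted p = 0.1556), and Hoxb3 at 5.24, 4.45 and 3.68 CPM against 7.80, 6.48 and 3.57 CPM (log2 0.36, SE 0.23, adjusted p = 0.3982). The smallest fold changes were also in this cluster. Hoxb8 was the 1 tested member with a lower mean in RARdn, at 2.88, 2.41 and 2.12 CPM against 2.59, 2.40 and 1.70 CPM (log2 -0.19, SE 0.23, adjusted p = 0.6809). Hoxb5 was at 6.64, 4.05 and 3.34 CPM against 5.45, 6.15 and 3.55 CPM (log2 0.080, SE 0.29, adjusted p = 0.8997), and Hoxb7 at 3.50, 3.42 and 1.98 CPM against 3.40, 4.75 and 2.21 CPM (log2 0.19, SE 0.32, adjusted p = 0.7668). For Hoxb5, Hoxb7 and Hoxb9 the sign turned without RARdn 2, to log2 values of -0.13, -0.15 and -0.069. It also turned for Hoxb5 without control 2 (-0.023) and without control 3 (-0.10), and for Hoxb7 without control 3 (-0.016). Hoxb9, the highest-numbered Hoxb gene tested, was at 0.726, 0.648 and 0.541 CPM against 0.835, 1.23 and 0.454 CPM, with the RARdn values on both sides of the controls. Hoxb2 and Hoxb6 had log2 fold changes of 0.43 and 0.36, with adjusted p-values of 0.4076 and 0.4279, and Hoxb1, a direct retinoic acid target of the hindbrain, had 3 counts in all, 2 in RARdn 1 and 1 in RARdn 3.

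In the Hoxd cluster Hoxd8 and Hoxd9 carried most counts. Hoxd8 was at 4.93, 4.11 and 3.56 CPM in controls and at 5.53, 5.63 and 5.25 CPM in RARdn (log2 0.36, SE 0.20, adjusted p = 0.3247). The 3 RARdn values lay close together and above the controls, although after TMM scaling the groups overlapped. Hoxd9, also among the 3 largest fold changes, was at 1.06, 0.581 and 0.383 CPM against 1.38, 1.40 and 1.05 CPM (log2 0.90, SE 0.40, adjusted p = 0.2311). RARdn 3 was just below control 1 for this gene. Hoxd4 had a log2 fold change of 0.45 (adjusted p = 0.6386), Hoxd3 had 6, 6 and 4 counts in controls and 30, 10 and 2 counts in RARdn 1, 2 and 3, and Hoxd1 had 6 counts in controls and 0 in RARdn. Hoxa9 had 6 counts in controls and 5 in RARdn, Hoxa10 had 1 and 5, Hoxd10 had 2 and 7 and Hoxd11 had 0 and 1.

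By cluster, summed CPM was 22.7 ± 4.28 in controls and 32.0 ± 9.89 in RARdn for Hoxa (1.41-fold), 27.4 ± 5.37 and 34.6 ± 9.40 for Hoxb (1.26-fold) and 5.45 ± 1.11 and 7.64 ± 0.916 for Hoxd (1.40-fold), and on the CPM scale the groups overlapped in all 4 clusters, Hoxc included. After TMM scaling the RARdn libraries lay above the controls for Hoxc (5.12 to 7.39 in controls, 8.23 to 12.3 in RARdn) and for Hoxd (4.51 to 6.66 and 6.84 to 8.19), and overlapped for Hoxa and Hoxb. With scaling to the mesenchyme markers Hoxa, Hoxb and Hoxd turned to a lower mean in RARdn, with log2 ratios of -0.15, -0.30 and -0.13, and Hoxc kept a higher one at 0.17. By paralog number the fold from control to RARdn was 1.53 for number 2, 1.37 for 3, 1.51 for 4, 1.26 for 5, 1.495 for 6, 1.22 for 7, 1.27 for 8 and 1.65 for 9, and with scaling to the mesenchyme markers only number 9 of these was above 1. For each of these numbers the groups overlapped on the CPM scale, and the fold had no steady course along the clusters from number 2 to 9. After TMM scaling the RARdn libraries lay above the controls for number 4 (11.78 to 15.45 in controls, 15.47 to 22.31 in RARdn). They also did for number 8 (5.834 to 7.857 and 8.097 to 8.463), and the groups overlapped for the other numbers from 2 to 9.

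On the CPM scale, the summed Hox genes and the summed pancreatic mesenchyme markers were both highest in RARdn 1, with RARdn 2 next. After TMM scaling the Hox sum was highest in RARdn 2 (96.4, against 83.2 in RARdn 1 and 67.8 in RARdn 3). The marker sum was not worked out on that scale. The 11 mesenchyme markers, such as the collagen genes Col1a1 and Col3a1, none at 0, summed to 5327 to 7141 CPM in controls and to 7864 to 10680 CPM in RARdn, without overlap. Their median log2 fold change was 0.53, and 1 of 11 was called higher, Lum, a collagen-binding proteoglycan (log2 1.07, SE 0.15, edgeR adjusted p = 0.0128). Of the 11, 9 had a log2 fold change above 0, while Barx1 and Nkx3-2 were below it (-0.52 and -0.13, neither called by edgeR). Most of the sum came from the collagen genes Col1a1, Col1a2 and Col3a1, at means of 1717, 1187 and 2094 CPM in controls. Scaling to these markers therefore follows mainly those collagen genes. DESeq2 called 7 of the 11, where it called 10.2% of all genes, and limma-voom called 2, where it called 4.17%. Per 1000 counts of these markers there were 10.5, 10.8 and 8.85 Hox counts in control 1, 2 and 3, against 9.50, 9.71 and 7.43 in RARdn 1, 2 and 3. So per marker count the groups overlapped, with RARdn 3 lowest. Hoxc alone gave 1.03, 1.02 and 0.851 per 1000 marker counts in controls and 1.40, 0.948 and 0.902 in RARdn, and Hoxc6 was still called when libraries were scaled to these markers (log2 1.43, edgeR adjusted p = 0.0206).

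**Figure D4:**
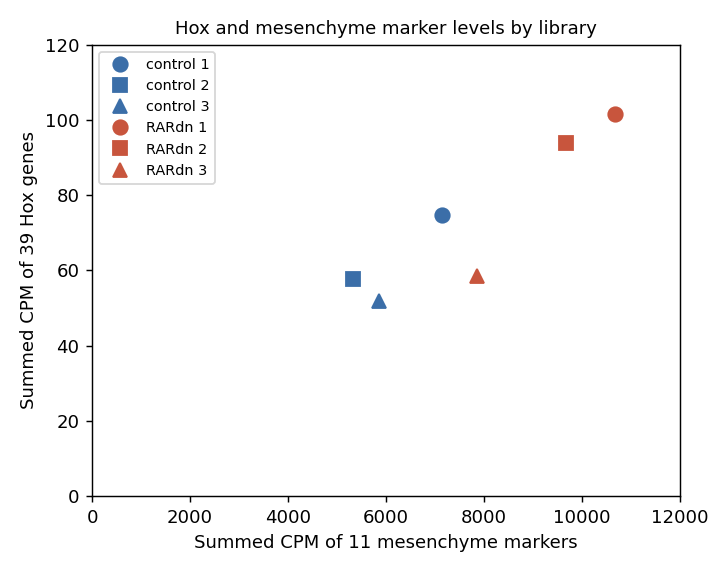
Summed CPM of the 39 Hox genes (vertical) against summed CPM of the 11 pancreatic mesenchyme markers (horizontal), 1 point per library, colours for genotype. On this CPM scale, without TMM scaling, RARdn 1 and 2 are highest on both axes, while RARdn 3 (58.5 Hox CPM) lies within the control range of Hox genes and above it for the markers.

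Some markers of other stromal cells passed the test. Smooth muscle markers summed to 41.7 to 72.4 CPM in controls and 87.5 to 219.7 CPM in RARdn, with Acta2, Actg2 and Cnn1, parts of the contractile apparatus, called higher out of 5 (log2 1.17, 2.65 and 4.202, edgeR adjusted p = 0.0431, 0.0165 and 0.0271), where 1.37% of all genes are called higher; DESeq2 called 4 of the 5 and limma-voom 2. Leukocyte markers summed to 59.98 to 93.6 CPM against 98.3 to 150 CPM, and Csf1r, the macrophage growth factor receptor, was called higher (log2 0.81, edgeR adjusted p = 0.0454), the 1 call among 5 tested, where DESeq2 and limma-voom called 2 each. Mesothelium, endothelium, splenic mesenchyme, blood progenitor and erythroid marker sums overlapped between groups, and none of those lists had a gene called by edgeR or limma-voom, while DESeq2 called 1 mesothelium marker; at an unadjusted edgeR p under 0.05 they had 1, 1, 0, 2 and 0 genes. The part of any of these cell types in the Hox values was not tested.

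**Figure D5:**
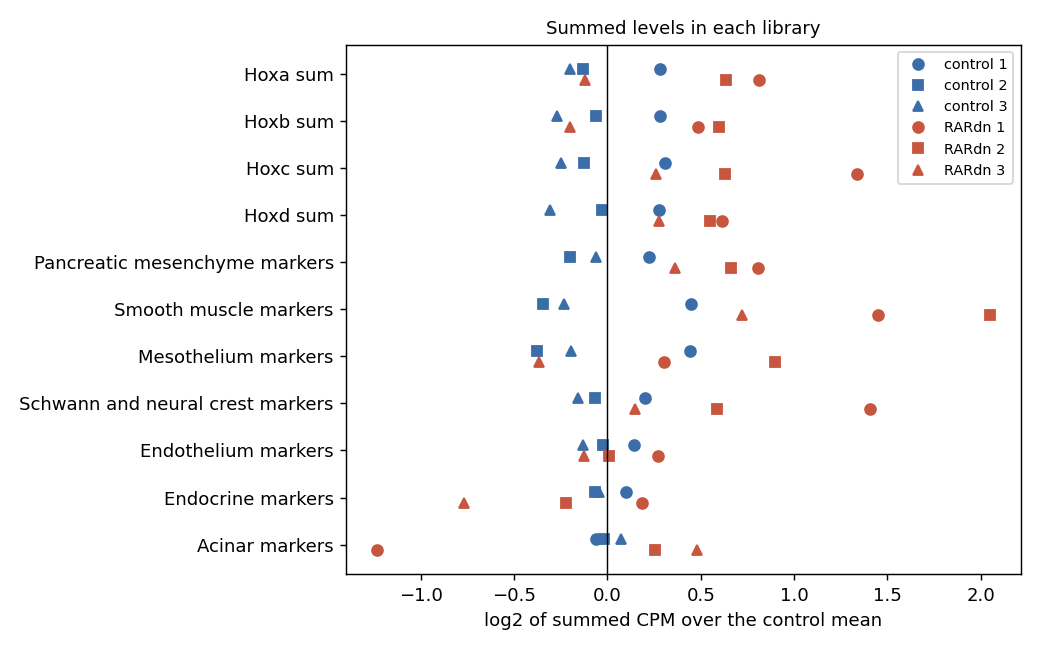
Log2 ratio of summed CPM to the control mean, for the 4 Hox clusters and 7 lists of cell type markers, 1 point per library with symbols for the replicate. Mesenchyme and smooth muscle marker sums are higher in all 3 RARdn libraries than in the controls, the Hox cluster sums overlap, and acinar marker sums run from 12650 CPM in RARdn 1 to 41440 CPM in RARdn 3.

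Lists of TALE cofactors, Polycomb, trithorax and other homeobox genes held no gene called by edgeR, where 4.02% of all genes are called and 22.2% have an unadjusted p under 0.05. Hox proteins bind DNA together with TALE cofactors, the Pbx, Meis and Pknox families. All 9 were tested and 0 were called (1 at an unadjusted p under 0.05, Pbx2, which DESeq2 called), with a median log2 fold change of 0.030; Meis2, the most abundant, was at 133 ± 5.28 CPM in controls and 141 ± 38.7 CPM in RARdn. Polycomb proteins keep Hox clusters silent and trithorax proteins keep them active. The Polycomb list of 23 genes also holds Kdm6a and Kdm6b, which are not Polycomb proteins but remove a Polycomb histone mark. Of the 23 genes 0 were called by edgeR, DESeq2 or limma-voom (6 at an unadjusted edgeR p under 0.05, a share near that of all genes), with a median of -0.030. Of 7 trithorax genes 0 were called by edgeR and limma-voom and 1 by DESeq2 (2 at an unadjusted edgeR p under 0.05), with a median of -0.069. Cbx6, the most abundant Polycomb gene, was at 190 ± 18.5 CPM in controls and 193 ± 47.7 CPM in RARdn, and Kmt2a, the most abundant trithorax gene in controls though not in RARdn, at 100.8 ± 6.39 and 77.5 ± 25.1 CPM (log2 -0.44, adjusted p = 0.138). Of 9 ParaHox, caudal and cluster-flanking homeobox genes, Pdx1 and Mnx1 were tested and neither was called by any of the 3 tools or had an unadjusted edgeR p under 0.05, Pdx1 lying at 52.5 ± 4.46 CPM in controls and 46.2 ± 18.3 CPM in RARdn, and Gsx2, Cdx4 and Evx2 had 0 counts.

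Genes of retinoid supply, clearance and reception did include called members. Of 13 tested out of 15, 3 were called higher and 0 lower (1.37% and 2.65% of all genes), and DESeq2 and limma-voom called 3 each, with a median log2 fold change of 0.16. Aldh1a3, an enzyme that makes retinoic acid, was at 0.337, 0.693 and 0.406 CPM in controls and at 2.78, 1.85 and 1.48 CPM in RARdn (log2 2.01, SE 0.34, edgeR adjusted p = 0.0194). The receptors Rara and Rarg had log2 fold changes of 0.48 and 0.51 (edgeR adjusted p = 0.0256 and 0.0437).

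Other transcripts of the clusters gave no call. Of 46 symbols placed between the outermost Hox genes, 12 were tested and 0 were called by edgeR, DESeq2 or limma-voom (1 at an unadjusted edgeR p under 0.05, Hotairm1), and 8 of 12 had a log2 fold change above 0, with a median log2 fold change of 0.12. Hotairm1, a noncoding RNA of the Hoxa cluster, was at 0.493, 0.604 and 0.496 CPM in controls and at 0.960, 1.27 and 0.879 CPM in RARdn (log2 0.95, SE 0.34, adjusted p = 0.1488). It was chosen after its values were seen. Its groups did not overlap, but its exons share bases with a gene on the other strand, so their reads cannot be told apart where strand is unknown. Gm11539, the most abundant of the 46, was at 4.45 ± 0.351 CPM in controls and 4.36 ± 0.537 CPM in RARdn, and Hotair, Hoxa11os and Mir196b had 0 counts.

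Start-site windows of 250 bases before to 50 after the start were at hand from RefSeq (GRCm38.p6) for 22 of the 39 genes, and not for Hoxc6 or Hoxc8. The letters AGGTCA, the core hexamer that retinoic acid receptors and other nuclear receptors bind, were looked for on both strands. They were in the windows of 7 of 22 Hox genes (31.8%), Hoxa5, Hoxb4, Hoxc4, Hoxd3, Hoxd4, Hoxd8 and Hoxd10, and in 18.1% of 27025 genes. The related letters GGTTCA were in 3 of 22 (13.6%, against 11.8% of all genes), and the Meis-type letters TGACAG in 2 of 22 (9.09%, against 21.6%). No Hox window held AGGTCA repeated in the same direction with 5 or with 2 bases between, strings in which the hexamer is counted again, and 0.0111% and 0.0074% of all genes did. The Hoxc4 window lies inside the span that GENCODE gives the gene (chr15:103018934-103036852), as does that of Hoxd4, and the outer starts of these 2 genes were not searched. For 3 abundant members the 250 bases before the RefSeq start are shown 5′ to 3′ on the strand of the gene, with the hexamer in capitals, read as TGACCT where it lies on the other strand: Hoxb4 (chr11:96318017-96318266), Hoxc4 (chr15:103034145-103034394) and Hoxd8 (chr2:74704365-74704614), all on the plus strand.

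Hoxb4: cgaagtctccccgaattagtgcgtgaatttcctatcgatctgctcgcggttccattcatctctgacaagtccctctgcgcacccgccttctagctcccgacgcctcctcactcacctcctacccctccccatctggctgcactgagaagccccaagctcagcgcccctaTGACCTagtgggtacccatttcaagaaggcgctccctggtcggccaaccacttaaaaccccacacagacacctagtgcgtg
Hoxc4: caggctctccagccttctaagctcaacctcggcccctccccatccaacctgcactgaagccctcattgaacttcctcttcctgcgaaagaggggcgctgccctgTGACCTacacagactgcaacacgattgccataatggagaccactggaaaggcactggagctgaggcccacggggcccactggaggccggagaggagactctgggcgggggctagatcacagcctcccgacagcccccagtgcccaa
Hoxd8: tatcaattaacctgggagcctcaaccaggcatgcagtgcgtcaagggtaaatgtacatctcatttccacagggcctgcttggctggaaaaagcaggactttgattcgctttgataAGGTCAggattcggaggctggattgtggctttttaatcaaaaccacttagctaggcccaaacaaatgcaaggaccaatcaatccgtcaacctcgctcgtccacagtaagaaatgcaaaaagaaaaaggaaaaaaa

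None of these 3 genes was called, with log2 fold changes of 0.50, 0.54 and 0.36 for Hoxb4, Hoxc4 and Hoxd8. A match is a description of the letters in these windows and shows no binding.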

How the data were processed

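RNA sequencing of whole pancreas gave 6 libraries, 3 control and 3 RARdn, grouped by the genotype in the labels. The deposited values are raw counts of reads per gene symbol; the submitters' processing notes name FastQC, cutadapt, HISAT2, HTSeq, bedtools and DESeq2 and the builds mm10 and GRCm38. Not given in the sources used here are tool versions, annotation and strand setting. The 5 summary lines of each table were kept out of library totals; reads outside genes were 2.90% to 8.99% and reads in more than 1 gene 4.87% to 5.49% of all reads.

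CPM is counts scaled to an equal total of gene counts. The test was edgeR 4.0.16 in R 4.3.3 (filterByExpr, TMM, quasi-likelihood, 2-sided) on all genes, with Benjamini-Hochberg adjustment over 19070 genes and a threshold of 0.05; an adjusted p-value given without a tool is from this test. SE was worked back from the F statistic. DESeq2 1.42.0 and limma-voom (limma 3.58.1) were alternatives, and the fits were tested on simulated data. Gene positions, exon lengths and homeoboxes came from GENCODE M21. Of the members, those called, the 2 most abundant of each cluster, the 3 largest and 3 smallest fold changes and the highest-numbered tested gene of each cluster are given in every library. Members and lists were chosen with earlier results of these data known. Within each genotype no library was a copy of another, as chi-square per degree of freedom between pairs ran from 13.8 to 407. Pairs across genotypes were not compared in this way. The result of 1 member is not reported here.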

Additional observations from a re-analysis of the deposited data

How the results depend on the processing

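Depth limited the low members: 24 to 80 counts stood behind Hoxc6 in RARdn and 7 to 12 in controls. Over all genes, 767 were called (262 higher, 505 lower); the count was 801 with RLE size factors, 9758 (235 higher, 9523 lower) with scaling to mesenchyme markers, 875 (362 higher) with acinar enzyme genes left out, 2346 (1123 higher) with no filter, 217 with at least 1 CPM in 3 libraries, 1946 (973 higher) with DESeq2, 796 with limma-voom, 61 (5 higher) with a term for sex, and 100 to 2980 when each library was left out in turn. The Hox count was 1 in the main test and with RLE size factors, with acinar enzyme genes left out and with DESeq2. It was 2 with mesenchyme scaling (Hoxb8, lower, joined Hoxc6) and with no filter (Hoxc8 joined), 0 with the filter of 1 CPM, which removes Hoxc6, 0 with limma-voom and with the sex term, and 0 to 2 when each library was left out; 2 was without RARdn 3, where Hoxa4 joined. At an unadjusted p under 0.05 the tests with 0 calls had 3 (filter of 1 CPM), 6 (limma-voom) and 1 (sex term) members. Hoxc6 had a log2 fold change of 1.98 with limma-voom (adjusted p = 0.0510), 1.84 with the sex term (0.4032), and 1.67 to 2.19 when each library was left out (0.0266 to 0.1547); DESeq2 gave an adjusted p of 0.00462.

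The Hox median was -0.16 with mesenchyme scaling and 0.32 to 0.55 when each library was left out. The log2 ratios of cluster sums with mesenchyme scaling were -0.15, -0.30, 0.17 and -0.13 for Hoxa, Hoxb, Hoxc and Hoxd; leaving out each library gave 0.31 to 0.73, 0.18 to 0.54, 0.46 to 1.03 and 0.36 to 0.65. For paralog numbers 2 to 9 mesenchyme scaling gave -0.028, -0.20, -0.054, -0.29, -0.059, -0.36, -0.29 and 0.090. It put 11 of the 15 named Hox genes below 0, lowest Hoxb8 at -0.78. With all counts of the gene divided by the length of unshared exon, an upper limit, Hoxa3 was at 1.77 and Hoxb3 at 2.23.

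Replicate numbers did not pair the samples: the correlations of deviations for same-numbered libraries were 0.013, -0.014 and 0.126. With the replicate number as a block 817 genes and 1 Hox gene were called, Hoxc6 at a log2 fold change of 1.96 (adjusted p = 0.0474). The cause of these shifts was not tested.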
